A study of Homo sapiens with 18 samples.

Results

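The claudins are the membrane proteins that form the strands of the tight junction, the seal between neighbouring epithelial cells. The 9 genes considered here were the claudin genes CLDN1, CLDN3, CLDN4, CLDN7 and CLDN12, together with OCLN (occludin, a second strand protein), TJP1 (ZO-1, the cytoplasmic scaffold that ties strands to actin), F11R (junctional adhesion molecule A) and EPCAM (an epithelial cell adhesion protein that associates with claudins). They were chosen by name. Every probe set annotated to exactly 1 of them was taken, which gave 15 of the 54675 probe sets on the array for 8 of the 9 genes, out of 19775 genes with a probe set. F11R had no such probe set and is not analysed here, and 1 probe set that lists CLDN12 with another gene was left out.

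RNA of 3 hepatocellular carcinoma cell lines, labelled Hep3B, SNU449 and PLC (PLC/PRF/5), was hybridised to 18 arrays. In each line, 3 arrays came from cells given an siRNA against ATAD2, a bromodomain ATPase of chromatin, and 3 from cells given a non-targeting control siRNA. All cells were grown in RPMI and transfected with the same lipid reagent, and the siRNA sequences, their number and the time after transfection were not found in the labels. The characteristics field calls the siRNA arrays knockouts, although the cells were transfected with siRNA. The lines are established ones, and each stands for 1 tumour.

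Hepatocytes are polarised epithelial cells whose tight junctions close off the bile canaliculus, and claudins are chosen in different combinations in different epithelia. Claudins bind one another across the gap between cells and bind ZO-1 with their cytoplasmic tails, while occludin modulates the strands. EPCAM is low in mature hepatocytes and is found on bile duct and progenitor cells and on part of hepatocellular carcinomas.

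ATAD2 fell in all 3 labels. Its probe set of highest signal differed by -3.80 log2 units in Hep3B, -2.39 in SNU449 and -2.62 in PLC, and all 4 of its probe sets passed the test in each label (limma, adjusted p between 4.42e-11 and 0.00389). The cell line labels were less secure. Hep3B cells are known to make albumin and alpha-fetoprotein and to lack RB1, but on the control arrays ALB averaged 13.76 in the arrays labelled SNU449, 10.61 in those labelled PLC and 3.03 in those labelled Hep3B, and RB1 averaged 4.44, 8.57 and 9.47 in the same order. The arrays labelled Hep3B and SNU449 therefore go against what is known of these lines, and the names below stand for the libraries labelled so. Each knockdown comparison sets arrays of the same label against each other. The mean of the leukocyte list (5 of 7 genes measured) was 4.74 to 5.40 per array and that of the endothelial list (5 of 5) 4.44 to 4.98. As group means, PTPRC lay between 2.77 and 3.66 and CDH5 between 2.76 and 3.40, while CD79A lay between 5.71 and 6.46 and PECAM1 between 6.12 and 6.89. No detection values were used, so signals this low cannot be placed above or below background.

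All values below are log2 signals after quantile normalization over the 18 arrays, each probe set's level is compared only with itself, and each group holds 3 arrays. A knockdown difference is ATAD2 siRNA minus control, tested with limma across all 54675 probe sets with Benjamini-Hochberg adjustment, and it is called at an adjusted p under 0.05. Differences between labels are taken on the control arrays alone and also need at least 1 log2 unit. Whether groups overlap is given as a description only. A two-sided exact permutation test of 3 arrays against 3 cannot give a p under 0.1, and the share of all probe sets without overlap is not given here.

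The promoter of CLDN1 is shown because CLDN1 was the member that rose after ATAD2 siRNA, and those of CLDN3, CLDN4 and CLDN12 for comparison, as the other claudins of the set for which RefSeq lists a single start. Each line gives the 250 bases before the start in GRCh38.p14, 5′ to 3′ on the gene's strand, with CACCC boxes (CCACCC or GGGTGG, the kind of site bound by KLF factors) and E-boxes (CAGGTG or CACCTG, the kind bound by ZEB and SNAI repressors) in capitals. They lie at chr3:190322447-190322696 (minus strand, CLDN1), chr7:73770271-73770520 (minus, CLDN3), chr7:73830746-73830995 (plus, CLDN4) and chr7:90403211-90403460 (plus, CLDN12).
CLDN1: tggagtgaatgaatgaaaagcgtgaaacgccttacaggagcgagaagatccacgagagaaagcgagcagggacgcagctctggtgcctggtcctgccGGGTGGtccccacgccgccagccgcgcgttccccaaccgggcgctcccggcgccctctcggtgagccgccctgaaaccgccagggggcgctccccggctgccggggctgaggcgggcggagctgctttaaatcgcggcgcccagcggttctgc
CLDN3: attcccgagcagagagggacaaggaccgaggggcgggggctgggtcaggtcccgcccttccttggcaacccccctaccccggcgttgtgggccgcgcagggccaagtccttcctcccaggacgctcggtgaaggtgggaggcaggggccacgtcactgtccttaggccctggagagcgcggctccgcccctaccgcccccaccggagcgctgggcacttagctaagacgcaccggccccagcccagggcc
CLDN4: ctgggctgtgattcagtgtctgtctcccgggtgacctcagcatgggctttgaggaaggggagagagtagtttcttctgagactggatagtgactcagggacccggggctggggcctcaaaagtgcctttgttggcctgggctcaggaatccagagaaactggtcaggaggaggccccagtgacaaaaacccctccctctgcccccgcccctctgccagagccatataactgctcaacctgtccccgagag
CLDN12: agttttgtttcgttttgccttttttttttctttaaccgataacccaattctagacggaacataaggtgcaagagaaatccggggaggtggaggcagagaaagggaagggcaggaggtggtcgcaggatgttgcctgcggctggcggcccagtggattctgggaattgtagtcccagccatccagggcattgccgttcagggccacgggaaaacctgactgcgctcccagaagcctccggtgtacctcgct
Both strands were searched, and matches of the 2 motifs may share an end base. The CLDN1 window held 1 CACCC box, 153 bases before the start, and the other windows printed held neither motif. CLDN7 and OCLN, each with more than 1 listed window (not printed), also held CACCC boxes, and both of them and TJP1 held E-boxes, so neither motif was particular to CLDN1. Of 35116 listed promoters, 31.3% held a CACCC box and 17.5% an E-box. A match is a description of the letters, not evidence of binding, and promoters were listed for 7 of the 9 genes.

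CLDN1 rose after ATAD2 siRNA in the arrays labelled Hep3B and did so on both of its probe sets. On 222549_at the ATAD2 siRNA arrays read 11.49, 11.49 and 11.50, against 10.57, 10.58 and 10.57 on the control arrays. On 218182_s_at they read 7.82, 8.15 and 7.98, against 7.22, 6.96 and 6.80. The groups did not overlap on either probe set. The differences were 0.92 ± 0.05 (SE, limma adjusted p = 1.32e-08) and 0.99 ± 0.11 (limma adjusted p = 1.16e-05), or 1.89-fold and 1.99-fold. Among the 2776 probe sets called higher in this label, 126 rose at least as much as 222549_at and 99 at least as much as 218182_s_at. In RNA of whole cultures, more cells with the transcript and more transcript per cell cannot be told apart.

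The CLDN1 difference was smaller in the other labels and did not pass there. In SNU449, 222549_at read 11.35, 11.37 and 11.36 with ATAD2 siRNA, against 11.19, 11.19 and 11.27 with control siRNA, which did not overlap but differed by 0.14 only (limma adjusted p = 0.49). In PLC it read 12.12, 12.21 and 12.21 with ATAD2 siRNA, against 11.98, 12.04 and 12.06, a difference of 0.15 (limma adjusted p = 0.113). The second probe set, 218182_s_at, differed by 0.17 in SNU449 and by -0.04 in PLC, and its groups overlapped in both. The difference between labels was itself past the threshold: limma's F test over the labels gave an adjusted p of 1.26e-05 for 222549_at and 0.00143 for 218182_s_at. Relative to Hep3B, the change of 222549_at was lower by 0.78 in SNU449 and 0.77 in PLC, and that of 218182_s_at was lower by 0.82 and 1.03.

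**Figure D1:**
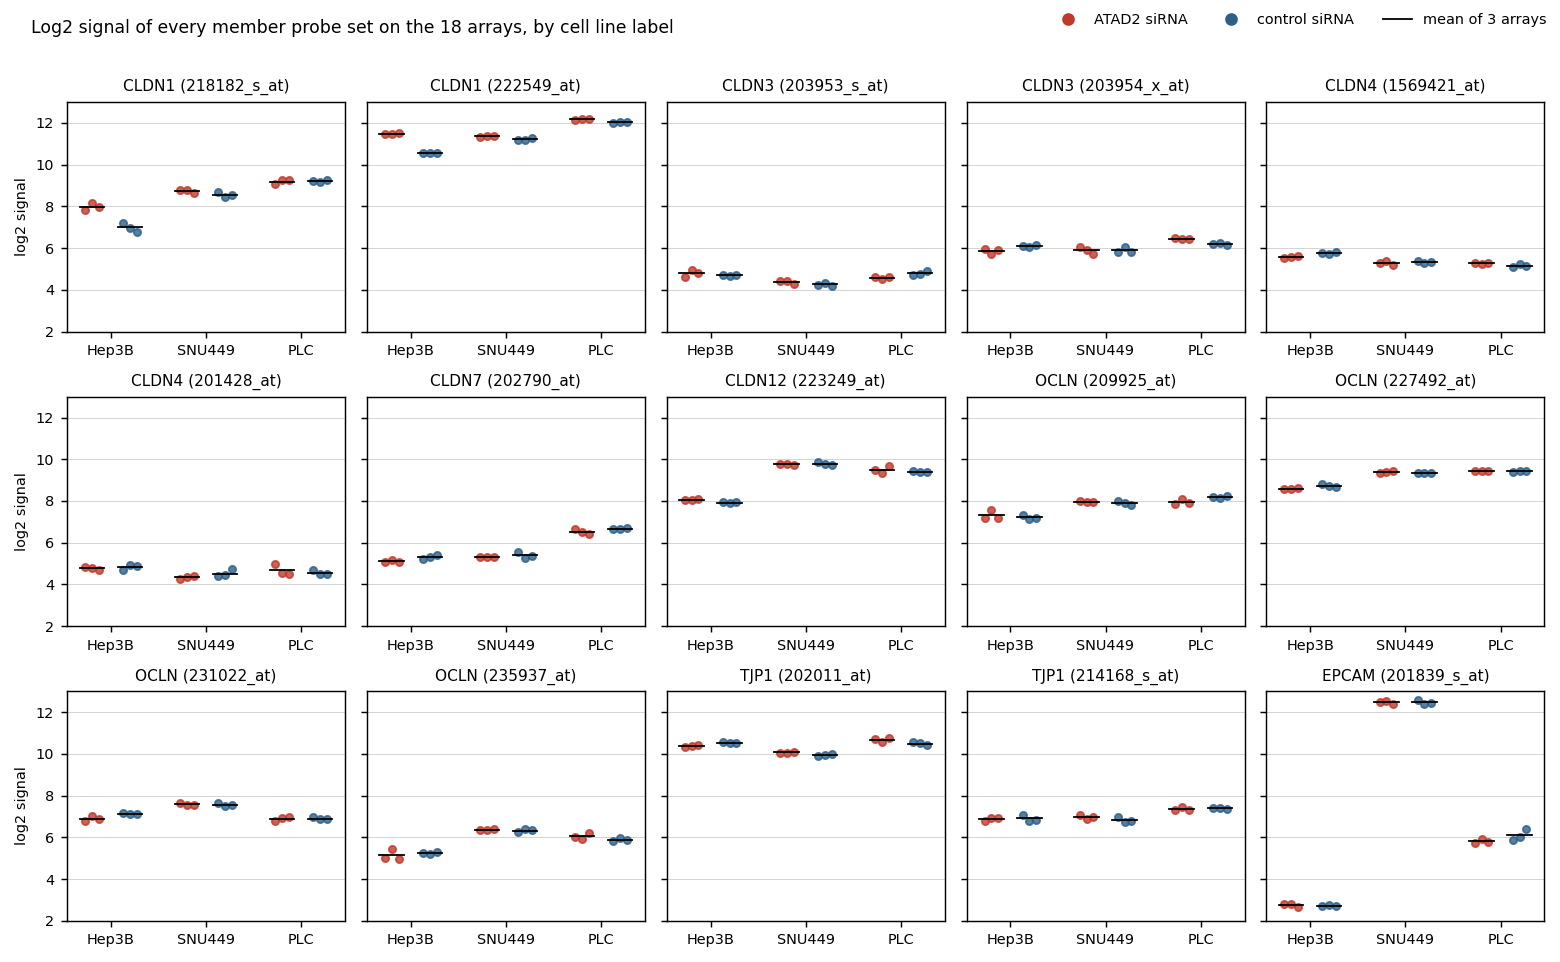
Log2 signal (vertical axis) of the 15 probe sets on each of the 18 arrays, by label, with ATAD2 siRNA arrays (red) left of control arrays (blue) and a bar at each mean of 3. The CLDN1 panels show the ATAD2 siRNA arrays above the controls in Hep3B (11.49 to 11.50 against 10.57 to 10.58 on 222549_at), and the EPCAM panel separates the 3 labels.

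The other claudins of the set did not pass the test in any label. CLDN3, one of the receptors of Clostridium perfringens enterotoxin, had a pair of probe sets that differed in opposite directions. On 203954_x_at the ATAD2 siRNA arrays read 6.47, 6.42 and 6.45 in PLC, against 6.22, 6.23 and 6.15 on the control arrays, and 5.98, 5.70 and 5.91 in Hep3B, against 6.10, 6.08 and 6.15. Neither pair of groups overlapped, and the differences were 0.25 in PLC (limma adjusted p = 0.114) and -0.24 in Hep3B (limma adjusted p = 0.106). The 2 changes differed from each other by 0.50 (PLC minus Hep3B, limma adjusted p = 0.0286), while the F test over all labels gave 0.0647. On 203953_s_at, one of the dimmer probe sets of the table, the same differences were -0.21 and 0.11, so CLDN3 as a gene has no settled direction.

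CLDN4, also an enterotoxin receptor, had its probe set 1569421_at at 5.51, 5.57 and 5.63 on the ATAD2 siRNA arrays labelled Hep3B, against 5.75, 5.73 and 5.82 on the controls. The groups did not overlap, but the difference of -0.20 did not pass (limma adjusted p = 0.0709), and in PLC it was 0.12 (limma adjusted p = 0.301). The second CLDN4 probe set, 201428_at, overlapped between groups in all 3 labels. CLDN7, a claudin that binds EPCAM directly, differed by -0.20 in Hep3B, -0.07 in SNU449 and -0.15 in PLC, with adjusted p of 0.163 or more in limma. Its groups overlapped in SNU449 but not in Hep3B or PLC. CLDN12, a claudin without the usual PDZ-binding tail, differed by 0.14, -0.04 and 0.10 in the same order of labels, with adjusted p of 0.294 or more. Its groups overlapped in SNU449 and PLC but not in Hep3B.

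For occludin and ZO-1 the differences were small. OCLN has 4 probe sets, and 231022_at read 6.77, 7.01 and 6.87 on the ATAD2 siRNA arrays labelled Hep3B, against 7.14, 7.13 and 7.11 on the controls. It fell by 0.24 (limma adjusted p = 0.0398), without overlap, but 1902 of the 2068 probe sets called lower in this label fell at least as much. The other OCLN probe sets differed by 0.09, -0.14 and -0.13 and did not pass, and the call on 231022_at was kept in 12 of 29 alternative settings, with adjusted p of up to 0.451. Of those others, 227492_at did not overlap in Hep3B, where it was lower, or in SNU449, where it was higher. The mean over the 4 probe sets differed by -0.10 in Hep3B (limma adjusted p = 0.301). In PLC, 209925_at was the OCLN probe set whose groups did not overlap, at 7.85, 8.10 and 7.92 with ATAD2 siRNA, against 8.21, 8.15 and 8.26 (-0.25, limma adjusted p = 0.138).

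TJP1 on its brighter probe set, 202011_at, read 10.32, 10.36 and 10.40 with ATAD2 siRNA in Hep3B, against 10.55, 10.54 and 10.50 with control siRNA. In SNU449 it read 10.06, 10.06 and 10.08, against 9.89, 9.95 and 10.01, and in PLC 10.72, 10.58 and 10.75, against 10.55, 10.52 and 10.41. The groups did not overlap in any label, with the ATAD2 siRNA arrays lower in Hep3B and higher in SNU449 and PLC. The differences of -0.17, 0.12 and 0.19 did not pass singly (limma adjusted p of 0.115, 0.759 and 0.0952). The F test over labels gave an adjusted p of 0.0459 in limma, which passed in 5 of 28 alternative settings and was lost on leaving out any 1 array except PLC ATAD2 siRNA replicate 2, without which it was 0.00823. The second TJP1 probe set, 214168_s_at, differed by -0.03, 0.14 and -0.03 and overlapped throughout.

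No EPCAM difference between ATAD2 siRNA and control arrays passed the test. It read 12.49, 12.52 and 12.40 with ATAD2 siRNA in SNU449, against 12.56, 12.39 and 12.46 with control siRNA. In PLC it read 5.73, 5.93 and 5.79, against 5.88, 6.02 and 6.38, and in Hep3B 2.82, 2.79 and 2.65, against 2.71, 2.77 and 2.71. The groups overlapped in every label. The differences were 0.00 in SNU449 (95% interval -0.21 to 0.21), -0.28 in PLC (-0.49 to -0.06, limma adjusted p = 0.132) and 0.02 in Hep3B (-0.19 to 0.24).

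Counted together, 3 of the 15 probe sets were called in Hep3B, 2 higher (both CLDN1) and 1 lower (OCLN), where 8.86% of all probe sets were called, 5.08% higher and 3.78% lower. The median difference was -0.05 over the members and -0.01 over all probe sets. In SNU449, 0 of 15 passed in limma, where 0.0439% of all probe sets were called at the adjusted threshold. In PLC, 0 of 15 passed, with 6 at an unadjusted p under 0.05, where 3.44% were called. For the mean of the 3 knockdown differences, 2 were called, both of CLDN1 (0.37 and 0.40, limma adjusted p = 0.00134 and 6.6e-07), against 6.59% of all (3.68% higher), and the F test over labels called 3 against 4.67%. Outside CLDN1, 1 of the other 13 probe sets was called in Hep3B.

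**Figure D2:**
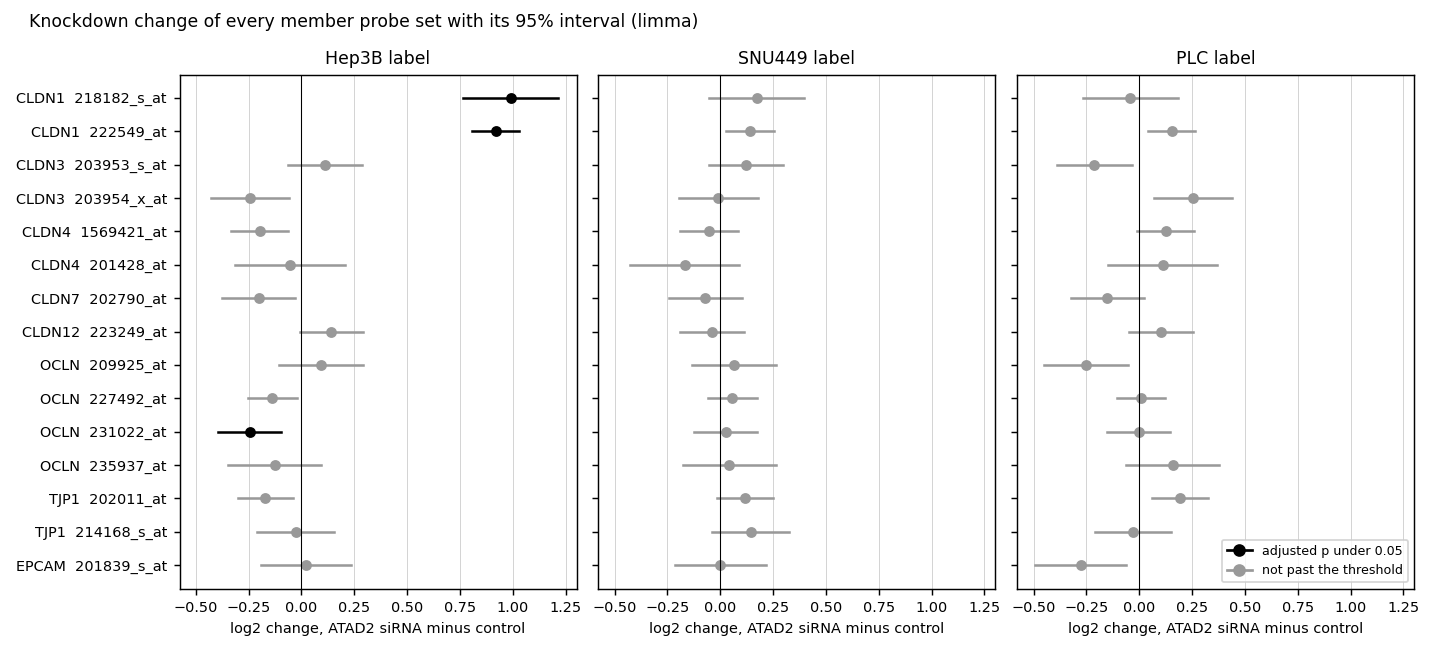
Knockdown difference (horizontal axis, log2, ATAD2 siRNA minus control) of the 15 probe sets with 95% intervals from limma, in 1 panel per label, black where the adjusted p is under 0.05. In Hep3B both CLDN1 probe sets lie at 0.92 and 0.99 and OCLN 231022_at at -0.24, and no point is black in SNU449 or PLC.

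In PLC the array spread was wider than elsewhere. The median SD of a probe set was 0.144 among the ATAD2 siRNA arrays labelled PLC and at most 0.0988 in the other groups. The 5′ minus 3′ signal of the actin and GAPDH control probe sets, a sign of RNA integrity, was -1.15, -0.45 and -1.09 on the ATAD2 siRNA arrays labelled PLC, against -0.59, -0.49 and -0.44 on the controls, so 2 of those 3 arrays were lower. In Hep3B it was -0.79, -0.42 and -0.71, against -0.65, -0.78 and -0.73. Its part in the results was not tested beyond a fit with this value as a covariate, under which both CLDN1 calls in Hep3B were kept. Cell type markers also moved. In PLC 8 of 16 hepatocyte markers fell, where 1.6% of all genes were called lower, and their mean over the list was 9.32 to 9.42 on the ATAD2 siRNA arrays, against 9.72 to 9.74 on the controls. In Hep3B 3 of 16 hepatocyte, 1 of 14 mesenchymal and 1 of 5 leukocyte markers rose and 1 of 4 bile duct markers fell, where 6.9% of all genes were called higher and 5.6% lower. The fibrinogen gene FGG averaged 11.59 with ATAD2 siRNA and 10.51 with control siRNA there, and KRT7 averaged 10.03 and 11.11. Their part in the CLDN1 rise was not tested.

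The labels differed far more in EPCAM than in any junction gene. On the control arrays EPCAM averaged 12.47 ± 0.09 in SNU449, 6.09 ± 0.26 in PLC and 2.73 ± 0.03 in Hep3B (SD, n = 3 each), and every step in that order was larger than the spread. Its differences were 9.74 for SNU449 minus Hep3B, 3.36 for PLC minus Hep3B and 6.38 for SNU449 minus PLC (limma adjusted p of 5.55e-18 to 1.63e-14 for the last 2 and 1.86e-20 for the first). On the array's own scale, EPCAM stood at the 99.6th percentile of all probe sets in SNU449, the 66.6th in PLC and the 6.40th in Hep3B. The Hep3B level therefore sat near the bottom of the signal range and may be background, so the differences against Hep3B are differences of signal and may be lower bounds. The mean of 16 hepatocyte markers followed the same order, at 11.08 to 11.13 per control array in SNU449, 9.72 to 9.74 in PLC and 5.78 to 5.86 in Hep3B. Single markers did not all do so: FGB averaged 6.88, 11.52 and 11.47, FGG 8.70, 12.72 and 10.51, and AHSG 12.81, 5.30 and 5.42 in that order of labels, and FGA and AMBP were highest in PLC. Of the mesenchymal markers, the mean over 14 genes was 6.25 to 6.29, 6.59 to 6.61 and 8.41 to 8.42. Not all of these genes kept that order. FN1 averaged 12.04, 11.45 and 10.93, CDH2 8.59, 9.66 and 8.89, and VIM 11.56, 10.50 and 13.30. The mean of 4 bile duct markers was 7.31 to 7.41, 6.77 to 6.92 and 7.23 to 7.34. The bile duct mean covers opposite orders, since KRT19 averaged 10.43, 5.69 and 3.36 and KRT7 5.16, 5.52 and 11.11. Their part in the EPCAM difference was not tested. The differences of the remaining main probe sets between their highest and lowest label reached 1.87 at most, for CLDN12.

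The genes whose profile over the 18 arrays was closest to that of EPCAM were UGT2B4, a liver glucuronosyltransferase, ORM1, the plasma protein orosomucoid, and HAL, histidine ammonia-lyase of liver and skin. Their root mean square differences from EPCAM, after centring each gene on its own mean, were 0.15, 0.86 and 0.90 log2 units. UGT2B4 averaged 11.55 in SNU449, 5.24 in PLC and 2.11 in Hep3B on the control arrays, which follows the same order. These 18 arrays fall into 3 labels, so any gene with like steps between labels has a like profile.

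**Figure D3:**
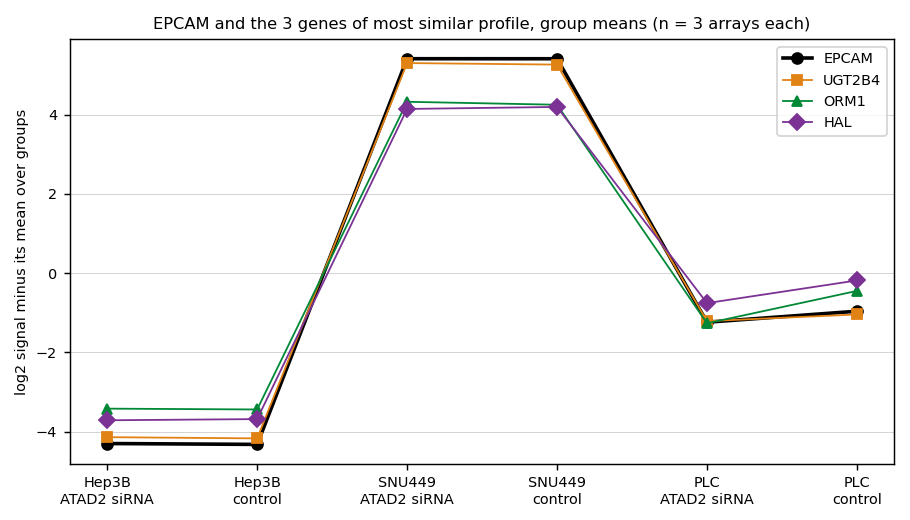
Group means (n = 3 arrays each) of EPCAM and its 3 nearest genes, each minus its own mean over the 6 groups, in log2 units, with ATAD2 siRNA left of control within each label. All 4 lines are highest in SNU449 and lowest in Hep3B, and EPCAM differs by at most 0.28 between ATAD2 siRNA and control within a label.

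CLDN1 was also higher at baseline in both other labels than in Hep3B. The PLC controls exceeded the Hep3B controls by 1.46 on 222549_at and 2.24 on 218182_s_at, and the SNU449 controls by 0.65 and 1.57 (limma adjusted p of 1.01e-08 or less in each). The 0.65 of SNU449 on 222549_at was under the minimum and was not called. Centring each array on its median moved the PLC differences to 2.90 and 3.43. The ATAD2 siRNA arrays labelled Hep3B, at 11.49 on 222549_at, came above the SNU449 controls, at 11.22, and below the PLC controls, at 12.03. On 218182_s_at they stayed below both, at 7.99, against 8.56 in SNU449 and 9.23 in PLC.

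CLDN12 was higher by 1.87 in SNU449 than in Hep3B and by 1.47 in PLC than in Hep3B, with controls at 9.79 ± 0.07, 9.40 ± 0.02 and 7.92 ± 0.04 (SD, n = 3 each). SNU449 and PLC differed by 0.40 on it (limma adjusted p = 0.000118), under the minimum. CLDN7 was highest in PLC, at 6.67 ± 0.03, against 5.39 ± 0.16 in SNU449 and 5.32 ± 0.10 in Hep3B. The last 2 overlapped. After quantile normalization CLDN3 and CLDN4 differed by at most 0.60 between labels in size, and CLDN4 1569421_at was highest in Hep3B, at 5.77 ± 0.05, against 5.35 ± 0.05 in SNU449 and 5.16 ± 0.07 in PLC.

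OCLN was higher in SNU449 than in Hep3B on all 4 probe sets, by 0.43 to 1.06, and only 235937_at passed the minimum difference. PLC minus Hep3B was 0.99, 0.69 and 0.63 on 3 of them and -0.23 on 231022_at, so the probe sets of OCLN did not give 1 order for PLC. TJP1 202011_at was lower in SNU449 than in Hep3B by 0.58 (9.95 ± 0.06 against 10.53 ± 0.03) and did not separate PLC from Hep3B (-0.04).

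In all, 4 of 15 probe sets passed for SNU449 minus Hep3B, all higher (CLDN1, CLDN12, OCLN, EPCAM), where 17.1% of all probe sets passed (8.76% higher). For PLC minus Hep3B, 5 of 15 passed, all higher (both of CLDN1, CLDN7, CLDN12, EPCAM), against 15.8% (8.28% higher). For SNU449 minus PLC, 2 passed, EPCAM higher and CLDN7 lower, against 17.3% (8.52% higher and 8.79% lower). The differences depended on scaling, most in the comparisons with PLC, whose arrays were deposited with a different distribution. For SNU449 minus Hep3B, OCLN 235937_at fell under the minimum after centring each array on its median, at 0.87, and CLDN3 203954_x_at, uncalled, was -0.21 after quantile normalization and 0.02 as deposited. Over all probe sets the median of PLC minus Hep3B was -0.71 in the values as deposited and 0.54 after centring each array on its median, and that of SNU449 minus PLC was 0.87 and -0.58. CLDN4 1569421_at gave -1.74 for PLC minus Hep3B and 1.59 for SNU449 minus PLC as deposited, and OCLN 235937_at turned to -0.39 for PLC minus Hep3B. TJP1 202011_at gave 1.39 for PLC minus Hep3B after centring, and OCLN 231022_at turned to 0.59. CLDN7 gave 0.59 for PLC minus Hep3B and -0.32 for SNU449 minus PLC as deposited, both under the minimum, and CLDN12 turned to -1.09 for SNU449 minus PLC after centring. The EPCAM differences, and those of CLDN1 and CLDN12 called against Hep3B, were called under each scaling.

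**Figure D4:**
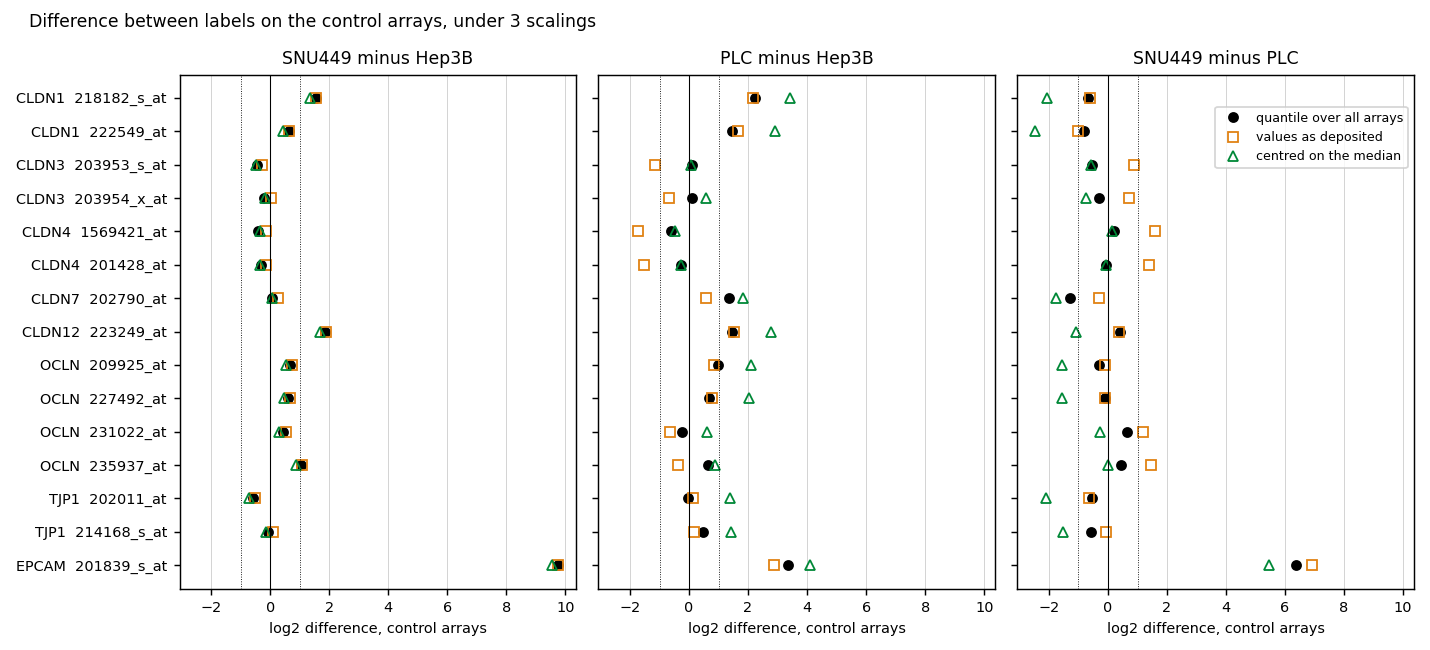
Difference between labels on the control arrays (horizontal axis, log2) for the 15 probe sets under 3 scalings, with dotted lines at the minimum of 1 in either direction. Every point shifts less between scalings in SNU449 minus Hep3B, where OCLN 235937_at is at 0.87 after centring, than in the PLC panels, and EPCAM stays far from 0 in all (9.74, 3.36 and 6.38 after quantile normalization).

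Of 52 other tight junction genes, 47 were measured, each counted by its probe set of highest mean. In Hep3B 4 were higher and 5 lower, where 12.5% of all genes were called. CLDN14, a claudin known for the inner ear and kidney, fell by 0.77 (limma adjusted p = 0.0022), AMOTL2, an angiomotin that binds YAP, by 0.60, PARD6B, a polarity protein, by 0.58, and PALS1, a Crumbs complex scaffold, by 0.33. CGNL1 (paracingulin, a ZO-1 partner) rose by 0.46, CXADR, the coxsackievirus and adenovirus receptor, by 0.29, AFDN (afadin) by 0.27 and YBX3 (ZONAB, a transcription factor held at ZO-1) by 0.27. The fifth to fall was MPDZ (MUPP1, a claudin-binding scaffold), by 0.24. The calls of CXADR and AFDN were kept in 23 of 29 alternative settings each and that of MPDZ in 22, against 27 for YBX3, 28 for PALS1 and all 29 for AMOTL2, PARD6B and CGNL1. CLDN14 was called in all 28 settings that tested it. In SNU449 and in PLC, 0 of 47 passed in limma, where 0.0759% and 3.21% of genes were called. The list's median difference in Hep3B was -0.03 and that of all genes -0.02. On the control arrays, 10 of the 47 were called higher and 11 lower for SNU449 minus Hep3B. For PLC minus Hep3B, 3 were higher and 11 lower, and for SNU449 minus PLC 5 and 2. Of all genes, 9.24% were higher and 10.5% lower, 9.58% and 8.83%, and 8.63% and 10.5% in the same order. Counted in the same way, 2 of 8 member genes were called for SNU449 minus Hep3B and 4 of 8 for PLC minus Hep3B, all higher. Under the minimum, TJP1 202011_at (-0.58) and CLDN4 1569421_at (-0.41) were lower in SNU449 than in Hep3B. The members were chosen with earlier results of these data known, so these counts do not show a direction particular to them.

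CLDN14 was low in all groups, with 4.58, 4.55 and 4.67 on the ATAD2 siRNA arrays labelled Hep3B, against 5.01, 5.23 and 5.88. The control arrays were spread wider than any other group of that gene. Without detection values, signals this low cannot be placed above or below background. GRHL1, AMOTL2 and CLDN14 passed the F test over labels (limma adjusted p of 0.0125, 0.0217 and 0.0303).

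Of 28 epithelial regulators and EPCAM partners, 24 were measured. In Hep3B, 4 rose and 0 fell, where 12.5% of all genes were called, 6.9% higher and 5.6% lower. KLF4, a zinc finger factor of epithelial differentiation, averaged 8.09 ± 0.09 with ATAD2 siRNA and 6.96 ± 0.06 with control siRNA (SD, n = 3 each). The groups did not overlap, and the rise was 1.12 (limma adjusted p = 2.05e-07). GRHL1, a grainyhead factor of the epidermis, read 5.54, 5.90 and 6.03, against 5.13, 5.11 and 5.19, a rise of 0.68 (limma adjusted p = 0.000537). KLF5 rose by 0.45 (limma adjusted p = 0.0245, kept in 23 of 29 alternative settings). TCF3, an E-box factor, rose by 0.26 (limma adjusted p = 0.0492, kept in 10 of 29). In SNU449, KLF4 was the single gene called; it rose by 0.51 (limma adjusted p = 0.0347, kept in 13 of 29 alternative settings), and in PLC it differed by 0.05. In PLC, TCF3 rose by 0.33 and CDH1 (E-cadherin, the adhesion protein of the adherens junction) fell by 0.57, at 7.43, 7.44 and 7.27, against 7.96, 7.91 and 7.98 (limma adjusted p = 0.0229, kept in 21 of 29).

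**Figure D5:**
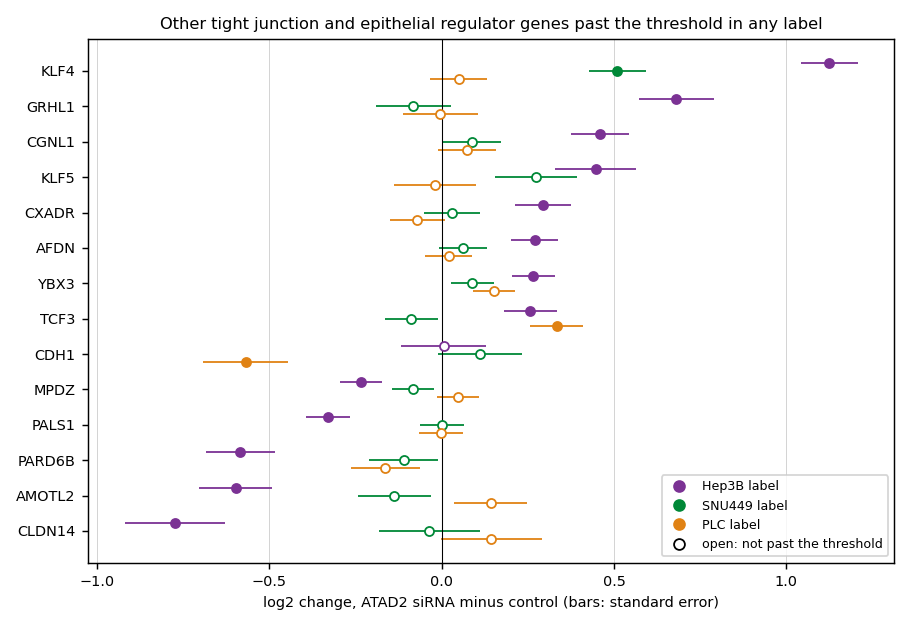
Knockdown difference (horizontal axis, log2, ATAD2 siRNA minus control, bars for the standard error) of the 14 genes from the lists of other junction genes and epithelial regulators that passed the test in any label, filled where the adjusted p is under 0.05. KLF4 is at 1.12 in Hep3B, 0.51 in SNU449 and 0.05 in PLC, and CDH1 passes in PLC alone, at -0.57.

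Several regulators also separated the labels at baseline. On the control arrays CDH1 averaged 10.05 in SNU449, 7.95 in PLC and 3.60 in Hep3B, the same order as EPCAM. ESRP1, an epithelial splicing factor, averaged 8.80, 4.62 and 4.67, and ZEB1, a repressor of epithelial genes, was lower in SNU449, at 4.08, by 4.52 than in PLC and by 4.92 than in Hep3B. The low ends of these differences (CDH1 in Hep3B, ESRP1 in PLC and Hep3B, ZEB1 in SNU449) may be background, so the differences are of signal and may be lower bounds. SNU449 was the highest label in EPCAM, CDH1 and ESRP1 and the lowest in ZEB1, while PLC lay between the others in EPCAM and CDH1 and near Hep3B in ZEB1 and ESRP1. KLF4 averaged 6.02 in SNU449, 10.07 in PLC and 6.96 in Hep3B. KLF5 (5.96, 8.98 and 6.10) and SPINT2 (4.66, 9.18 and 4.24) were also highest in PLC. In ELF3 (7.49, 9.14 and 8.91) PLC and Hep3B differed by less than the minimum of 1. For SNU449 minus PLC, 6 of the 24 regulators were called higher and 6 lower. The counts were 6 and 4 for SNU449 minus Hep3B and 5 and 1 for PLC minus Hep3B. Of all genes, 19.2%, 19.7% and 18.4% were called in this order. ZEB2, SNAI1, SNAI2 and GRHL2 did not pass the minimum difference between any 2 labels, nor the knockdown test in any label. ESRP2 is not analysed here.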

How the data were processed

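Values came from 1 deposited table of 54675 probe sets by 18 arrays. The range of the deposited values (1.33 to 13.97) was that of a log2 scale, and how the authors corrected background and normalized is not given in the sources used here. The submitters' processing notes name limma. Array medians ran from 4.14 to 5.62. Sorted columns of the same line lay within 0.155 of each other and those of all lines within 1.51, which is why all 18 arrays were quantile normalized together. The platform annotation lists 1 gene for 41097 probe sets, several for 1801 and none for 11777, and 41043 symbols were updated by gene identifier. Array number limits the precision, and no detection values or batch labels were used.

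One mean per group (6 groups, 3 biological replicates each per the labels) entered a limma model (version 3.58.1, R 4.3.3, lmFit and eBayes) with 12 residual and 4.01 prior degrees of freedom. P-values were adjusted by Benjamini-Hochberg over all probe sets, two-sided. Simulated data with known changes showed 47% (Hep3B), 50% (SNU449) and 46% (PLC) recovery at a log2 change of 0.5, and 93%, 93% and 91% at 1. Each label had 100 changed probe sets of each size among 54675. The data themselves called 8.86% in Hep3B, 0.0439% in SNU449 and 3.44% in PLC. Recovery after adjustment depends on how many probe sets change, so the simulation does not compare the labels in their power to call a change. Alternatives changed the scaling, filters, weights, covariates, blocks, thresholds, probe set rule and left out each array. The members and both gene lists were chosen with earlier results of these data known. All members were named, then up to 4 genes per list, direction and label with the largest called change (MPDZ was added after its value was seen), and 9 regulators whether or not they passed. RefSeq promoters (GRCh38.p14) were searched for letters only.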

Additional observations from a re-analysis of the deposited data

Results flagged for a closer look

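The knockdown change differed between labels for several genes, each tested with limma in the model of 6 group means. CLDN1 rose by 0.92 on 222549_at in Hep3B, against 0.14 in SNU449 and 0.15 in PLC (F test over labels, adjusted p = 1.26e-05), and by 0.99, against 0.17 and -0.04, on 218182_s_at (adjusted p = 0.00143). TJP1 202011_at was lower by 0.17 in Hep3B and higher by 0.12 in SNU449 and 0.19 in PLC (adjusted p = 0.0459). That F test passed in 5 of 28 alternative settings, and the second TJP1 probe set did not pass it (adjusted p = 0.592). CLDN3 203954_x_at differed by 0.25 in PLC, against -0.24 in Hep3B (difference 0.50, adjusted p = 0.0286), and its second probe set moved the other way. The F test over labels did not pass for 203954_x_at (adjusted p = 0.0647). KLF4 rose by 1.12 in Hep3B, 0.51 in SNU449 and 0.05 in PLC (adjusted p = 0.00015). GRHL1 changed by 0.68, -0.08 and 0.00 in the same order (adjusted p = 0.0125), AMOTL2 by -0.60, -0.14 and 0.14 (adjusted p = 0.0217) and CLDN14 by -0.77, -0.04 and 0.14 (adjusted p = 0.0303). No outlier test was run on the groups of 3 arrays, but each array was left out in turn. The knockdown calls in Hep3B of CLDN1 (both probe sets), KLF4, GRHL1, AMOTL2 and CLDN14 were kept in all 18 of those fits.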

How the results depend on the processing

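Of 998 recomputed values of single genes, those called in the main setting alone, 874 kept their direction and their side of the threshold, 124 kept the direction alone and 0 reversed. Uncalled differences changed sign in places and are not in this count. Both CLDN1 calls in Hep3B were kept in all 29 alternatives, with differences of 0.91 to 0.99 on 222549_at and 0.89 to 1.11 on 218182_s_at. With the values as deposited, members called were 1 in PLC and 6 for SNU449 minus PLC. With quantile normalization within each line they were 1 and 5. With each array centred on its median they were 1 in PLC, 3 for SNU449 minus Hep3B (without OCLN 235937_at, at 0.87), 9 for PLC minus Hep3B and 9 for SNU449 minus PLC, and 1 regulator was called in PLC. Without the dimmest 50% of probe sets, 6 members were called in Hep3B and 5 by the F test. An intensity trend with a robust prior called 2 members and 1 other junction gene in PLC. At a threshold of 0.01, 5 other junction genes and 2 regulators passed in Hep3B, with 0 regulators in SNU449 and 0 in PLC. Each line fitted by itself called 0 regulators in SNU449 and 0 in PLC. With a minimum change of 0.5, the mean of labels called 0 members, and Hep3B 3 other junction genes and 2 regulators, and PLC 1 regulator. Without a minimum difference between labels, 12, 11 and 13 members passed (SNU449 minus Hep3B, PLC minus Hep3B, SNU449 minus PLC), and with a minimum of 2, 1, 2 and 1. One probe set per gene gave 2 members for SNU449 minus Hep3B. The mean of a gene's probe sets gave 1 in Hep3B, 1 for the mean of labels and 1 by the F test. The cause was not tested, apart from the fewer features tested in the last settings. The share of all probe sets called under each alternative setting, or without single arrays, is not given here. These counts therefore do not set the members against the other probe sets.

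Leaving out each array in turn gave 2 to 4 members in Hep3B, 0 in SNU449, 0 to 2 in PLC (2 without PLC ATAD2 siRNA replicate 2), 2 for the mean of labels, 2 to 4 by the F test, 4 for SNU449 minus Hep3B, 5 to 6 for PLC minus Hep3B and 2 for SNU449 minus PLC. Other junction genes were 6 to 10 in Hep3B, 0 in SNU449 and 0 to 5 in PLC (5 without PLC ATAD2 siRNA replicate 2 and 2 without replicate 3). Regulators were 2 to 4 in Hep3B, 0 to 1 in SNU449, where 13 of 18 arrays ended the KLF4 call, and 0 to 2 in PLC. The OCLN 231022_at call was kept in 7 of these 18 fits. Replicate numbers were not taken to pair the samples, since deviations of same-numbered arrays correlated between -0.10 and 0.07. With the replicate number as a block, 1 other junction gene was called in PLC, and 2, 0 and 1 regulators in Hep3B, SNU449 and PLC. PLC arrays matched their own number best in 3 of 3 pairs, SNU449 in 1 and Hep3B in 0.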
